A study of Mus musculus with 6 samples.

Results

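The proteasome subunit genes described here were chosen by name alone: every gene whose symbol starts with Psm, a letter from a to g and a number, without pseudogene names, at 1 row per Ensembl ID. This gave 51 of 22584 genes. They were sorted by role into 7 alpha and 7 beta subunits of the core, 6 ATPases and 3 other subunits of the base, 8 lid subunits, 3 immunoproteasome subunits, 2 tissue-specific core subunits, 6 activators and inhibitors, and 7 assembly chaperones. The name rule also took in 2 genes that encode no subunit, Psmc3ip and Psme3ip1. The 31 subunits of rings, base and lid are called the standard subunits below.

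The proteasome is the large protease that degrades proteins marked with ubiquitin. Its barrel-shaped core particle stacks outer rings of alpha subunits on inner rings of beta subunits, which carry the proteolytic sites. A regulatory particle caps the barrel: its base, with a ring of ATPases, unfolds the substrate and threads it into the core, and its lid removes ubiquitin. In neurons, protein turnover by the proteasome is part of synaptic remodelling, and in immune responses interferon replaces the catalytic beta subunits with the alternative forms of the immunoproteasome.

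RNA was sequenced from brain tissue of wild-type mice after extraction with the AllPrep kit (3 libraries), a column kit that takes several kinds of molecule from one lysate, or with TRIzol (3 control libraries), a phenol and guanidine reagent. Libraries of both groups were amplified by T7 in vitro transcription. The comparison asks how RNA profiles after the kit differ from those after conventional extraction. The labels give no age, sex, strain or brain region and leave unsaid whether each library had its own animal. The p-values therefore refer to the scatter among 6 libraries, and that scatter may be technical.

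Total counts ran from 36395330 to 50937858 per library. Neuron, oligodendrocyte and astrocyte markers were detected in all 6 libraries. Levels are given as CPM, each count scaled to a common column total. Of 7 neuron markers, 4 were lower in each AllPrep library than in every TRIzol library (3 with TMM scaling), and the sum of the 7 was 5295 to 6206 CPM in AllPrep and 6544 to 7175 CPM in TRIzol. Of 6 oligodendrocyte markers, 6 were lower in that sense (5 with TMM scaling), with sums of 3144 to 5532 CPM in AllPrep and 5928 to 6970 CPM in TRIzol. Of all tested genes, 20.6% were lower in that sense, or 17.1% with TMM scaling. Snap25, the most abundant neuron marker, had 2397 ± 287 CPM in AllPrep and 3212 ± 349 CPM in TRIzol (SD, n = 3 each). The groups of Syt1, Rbfox3 and Nefl overlapped, with log2 fold changes of -0.03, 0.12 and -0.19. For 6 astrocyte markers, of which 2 were higher and 1 lower without overlap, the sums were 3982 to 4373 CPM in AllPrep and 3205 to 3751 CPM in TRIzol. The gene Slc1a2 made up most of these sums, with 3046 ± 177 CPM in AllPrep and 2389 ± 210 CPM in TRIzol (SD, n = 3 each). Slc1a3, higher in AllPrep, passed the test used below, Aldh1l1 was lower in each AllPrep library, and Aqp4 had a log2 fold change of -0.01. For 7 choroid plexus markers, all of which passed that test, the sums were 613 to 1236 CPM in AllPrep and 17.7 to 25.7 CPM in TRIzol. None of these 26 markers was at 0 in any library. For 4 blood markers, of which 3 could be tested and 0 passed, the sums were 8.91 to 13.2 CPM in AllPrep and 9.14 to 17.8 CPM in TRIzol, with Hba-a2 at 0 in some libraries of both. In bulk tissue, fewer cells of a type and less RNA per cell cannot be told apart. A difference between the extraction methods and a difference in the tissue taken also cannot be told apart, as the labels give no brain region. AllPrep replicate 3 had the lowest oligodendrocyte sum and the highest choroid plexus sum.

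Proteasome transcripts summed to a smaller part of the counts in each AllPrep library than in any TRIzol one, but no single gene passed the test. All 51 genes together summed to 3020, 3002 and 2964 CPM in the AllPrep libraries, against 3517, 3503 and 3242 CPM in the TRIzol libraries. The groups did not overlap, and TRIzol replicate 3 lay closest to the AllPrep libraries. In edgeR's quasi-likelihood test, with TMM scaling and Benjamini-Hochberg adjustment over all 16325 tested genes, 0 of the 51 genes passed an adjusted p of 0.05, where 3.80% of all tested genes did (2.52% higher and 1.28% lower in AllPrep). All 51 were above the filter on low counts.

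At an unadjusted p below 0.05, 17 proteasome genes were on the lower side in AllPrep, where 12.4% of all tested genes were, and 1 was on the higher side, where 13.4% were (25.8% in either direction). Leaving out 1 library moved this count of 18 to 24 without TRIzol replicate 3 and to 11 without AllPrep replicate 2 or 3. It became 10 without TRIzol replicate 1, 8 without TRIzol replicate 2 and 7 without AllPrep replicate 1. For these fits the share of all tested genes at that threshold is not given, so the counts cannot be set against it. DESeq2 called 6 genes, all with negative values (Psma3, Psmc3, Psmc5, Psmc6, Psmd4 and Psmd12), with 12.9% of all genes called. edgeR with library size as the only scaling called 3 of these 6 (Psma3, Psmc3 and Psmd12), or 3 of the 51, with 3.97% of all genes called.

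The values were small and mostly negative. Log2 fold changes are AllPrep over TRIzol throughout, from edgeR. They were negative for 40 of the 51 genes and for 26 of the 31 standard subunits, where 51.5% of all tested genes had negative and 48.5% positive values. The median was -0.16 over the 51 genes and -0.18 over the standard subunits, against -0.01 over all tested genes. The range over the 51 genes ran from -0.42 (Psmc5) to 0.48 (Psmb11, on few counts). With library size as the only scaling, which lowered the median of all tested genes to -0.04, 43 of the 51 and 28 of the 31 were negative, as were 56.6% of all tested genes.

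Groups were also compared by whether they overlapped. On CPM, 25 of the 51 genes lay lower in each AllPrep library than in every TRIzol library, where 20.6% of all tested genes did, and 1 lay higher, where 13.4% did (34.0% in either direction). With TMM scaling, an alternative added after seeing the data, 20 genes lay lower (17.1% of all tested genes) and 2 higher (16.0%, or 33.1% in either direction).

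**Figure D1:**
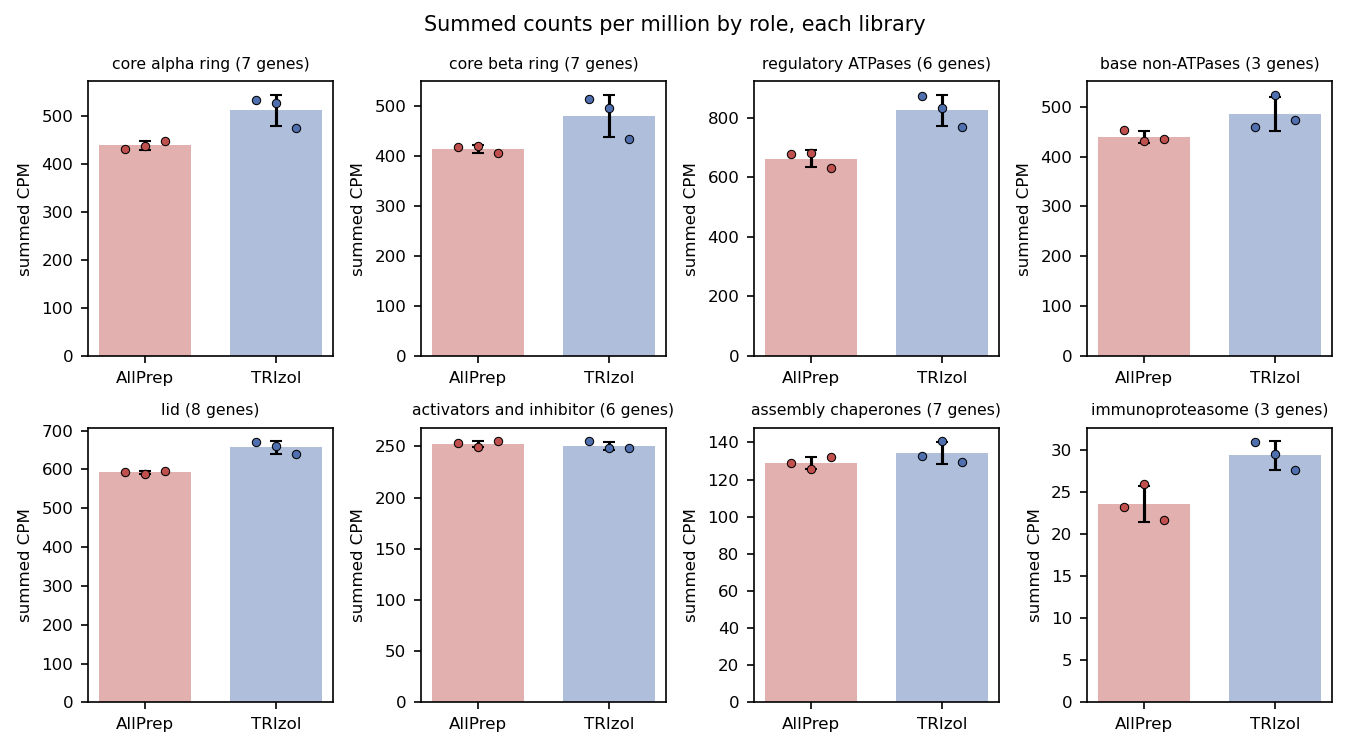
Summed CPM of each role (vertical axes, from 0) in AllPrep and TRIzol libraries; points are libraries in replicate order, bars their mean and whiskers the SD (n = 3). The ATPases sum to 631 to 680 CPM in AllPrep and 770 to 873 CPM in TRIzol, while the activators and inhibitor lie at 249 to 255 CPM in AllPrep and 248 to 255 CPM in TRIzol.

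In vertebrate cells the transcription factor encoded by Nfe2l1 raises proteasome gene expression through antioxidant response elements in the promoters, and factors of the ETS family bind many promoters of housekeeping genes. The 250 bases before the start site were searched on both strands for letters of these motifs in the 43 of 51 genes that RefSeq's promoter table (GRCm38.p6) holds. That build differs from GRCm39, which the submitters' processing notes name. The element's core, TGACNNNGC, was present in 4 of 25 standard subunit promoters, or 16.0%, and in 5 of all 43, or 11.6%, against 11.5% of 27025 genes. The ETS core, CCGGAAG, was present in 9 of 25, or 36%, against 7.83% of those genes. A GC box (GGGCGG) was found in 56.0% of the 25 against 35.4%, and a CCAAT box (CCAAT) in 40.0% against 37.5%. The core of the interferon response element was in 2 of the 25 (8.0%, against 3.46%) and in no immunoproteasome promoter of this window.

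The promoters below are those of the 4 standard subunits that hold the antioxidant response element core, and they are shown for where it lies. Their log2 fold changes ran from -0.32 to -0.29, and those of searched standard subunits without the core from -0.42 (Psmc5) to 0.04 (Psmd1). The set without the core is larger, so the widths of these ranges cannot be compared, and a link between motif and value was not tested. The fifth gene of the 51 with that core, the base chaperone Psmd9, had 0.01. Each sequence is the 250 bases before the start site, 5′ to 3′ on the gene's strand. Capitals mark that core, on either strand, and in Psmc6 and Psmd12 also the ETS core. The 2 motifs share no base in these windows. The element lies 47 and 9 bases before the start of Psmb5 and Psmb6, counted from its first printed base, and near the far end of the window in Psmc6 and Psmd12. A match is a description of letters and not of binding.
Psmb5 (chr14:54617996-54618245, - strand, GRCm38.p6): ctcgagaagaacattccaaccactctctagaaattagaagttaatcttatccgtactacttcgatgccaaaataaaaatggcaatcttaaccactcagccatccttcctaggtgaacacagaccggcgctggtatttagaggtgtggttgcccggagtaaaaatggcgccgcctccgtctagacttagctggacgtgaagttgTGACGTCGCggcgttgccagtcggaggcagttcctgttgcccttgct
Psmb6 (chr11:70525107-70525356, + strand, GRCm38.p6): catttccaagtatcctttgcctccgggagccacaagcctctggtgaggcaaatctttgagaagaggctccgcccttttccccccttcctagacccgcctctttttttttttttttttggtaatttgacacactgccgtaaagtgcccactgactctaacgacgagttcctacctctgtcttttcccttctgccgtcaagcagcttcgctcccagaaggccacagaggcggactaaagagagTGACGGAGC
Psmc6 (chr14:45329574-45329823, + strand, GRCm38.p6): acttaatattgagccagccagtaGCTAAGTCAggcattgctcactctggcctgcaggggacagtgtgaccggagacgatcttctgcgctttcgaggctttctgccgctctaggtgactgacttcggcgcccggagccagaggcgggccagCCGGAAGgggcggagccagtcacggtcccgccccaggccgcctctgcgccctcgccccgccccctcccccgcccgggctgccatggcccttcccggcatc
Psmd12 (chr11:107479278-107479527, + strand, GRCm38.p6): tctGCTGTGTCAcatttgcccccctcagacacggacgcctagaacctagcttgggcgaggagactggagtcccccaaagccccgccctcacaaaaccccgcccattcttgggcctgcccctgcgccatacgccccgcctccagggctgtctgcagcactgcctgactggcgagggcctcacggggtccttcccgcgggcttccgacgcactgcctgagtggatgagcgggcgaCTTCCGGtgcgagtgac

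The alpha ring is built from 7 different subunits that form the gate of the core. Of them 6 had negative values (median log2 fold change -0.21), with 0 past the test. Psma3 (ENSMUSG00000060073) had 58.3, 61.3 and 61.5 CPM in AllPrep against 77.4, 74.7 and 75.1 CPM in TRIzol. The lowest TRIzol library stood above the highest AllPrep library, and the spread within each method was narrow. Its log2 fold change was -0.29 (SE 0.07, 95% interval -0.45 to -0.14 in limma-trend), with the smallest adjusted p of all 51 genes (0.056 in edgeR). Psma2, the most abundant alpha subunit by CPM, had 75.7, 75.2 and 78.5 CPM in AllPrep and 99.8, 96.0 and 80.2 CPM in TRIzol (log2 fold change -0.23, adjusted p = 0.18 in edgeR). Here TRIzol replicate 3 lay just above the AllPrep libraries, and with TMM scaling the groups overlapped. Psma6 had overlapping groups, with 68.4, 67.0 and 66.0 CPM in AllPrep and 71.1, 64.7 and 65.5 CPM in TRIzol (log2 fold change 0.04, 95% interval -0.12 to 0.20). The other alpha subunits, Psma1, Psma4, Psma5 and Psma7, had log2 fold changes from -0.21 to -0.19, and the groups of Psma1 overlapped.

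The beta ring holds the proteolytic sites, in the subunits encoded by Psmb5 (chymotrypsin-like), Psmb6 (caspase-like) and Psmb7 (trypsin-like). These 3 catalytic genes had the 3 most negative values of the ring. Psmb5 had 38.6, 41.1 and 43.3 CPM in AllPrep against 58.4, 51.7 and 46.7 CPM in TRIzol (log2 fold change -0.32 ± 0.10 SE, edgeR adjusted p = 0.11). Psmb6 had 59.9, 57.0 and 50.2 CPM in AllPrep against 75.1, 74.3 and 59.9 CPM in TRIzol (log2 fold change -0.29, adjusted p = 0.15 in edgeR). The groups of Psmb6 met at their edges, in AllPrep replicate 1 and TRIzol replicate 3. Psmb7 had 49.5, 55.0 and 54.1 CPM in AllPrep against 64.0, 66.6 and 59.3 CPM in TRIzol, with no overlap (log2 fold change -0.22, adjusted p = 0.14 in edgeR). Among the structural members, Psmb1, the most abundant, had 104 ± 3.6 CPM in AllPrep and 115 ± 11.7 CPM in TRIzol (SD, n = 3 each; log2 fold change -0.12). Psmb2 had 36.7 ± 1.31 CPM in AllPrep and 37.1 ± 0.587 CPM in TRIzol (SD, n = 3 each; log2 fold change 0.02, 95% interval -0.15 to 0.18), and its sign turned under 2 of 17 alternatives. The ring's median was -0.18.

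The ATPases, which form a ring of 6 different subunits above the core and drive unfolding, were the role with the lowest median, -0.26. All 6 had negative values, but 0 passed the test. For all 6 the AllPrep libraries stood wholly below the TRIzol libraries, on CPM and with TMM scaling. The same held for 20.6% of all tested genes on CPM and for 17.1% with TMM scaling. Psmc5 (ENSMUSG00000020708) had 162, 155 and 132 CPM in AllPrep against 237, 200 and 178 CPM in TRIzol. Both groups were wide, with TRIzol replicate 1 highest and AllPrep replicate 3 lowest. Its log2 fold change of -0.42 (SE 0.12, 95% interval -0.70 to -0.13) is a ratio of 0.748, and the adjusted p was 0.094 in edgeR. Psmc3 had 117, 126 and 116 CPM in AllPrep against 168, 153 and 145 CPM in TRIzol (log2 fold change -0.34 ± 0.08 SE, edgeR adjusted p = 0.064). For Psmc6 the values were 86.6, 83.3 and 80.5 CPM in AllPrep against 114, 103 and 99.6 CPM in TRIzol (log2 fold change -0.30, adjusted p = 0.067 in edgeR). At the other end of the ring, Psmc4 had 69.7, 72.0 and 69.4 CPM in AllPrep against 77.7, 83.5 and 76.7 CPM in TRIzol, with a log2 fold change of -0.14 and an interval that crossed 0 (-0.29 to 0.02). Psmc1 and Psmc2 had -0.22 and -0.16.

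The base also contains large scaffold subunits and a ubiquitin receptor. Psmd2, a scaffold that binds shuttle factors for ubiquitinated substrates, was the most abundant of all 51 genes by CPM. It had 266, 254 and 258 CPM in AllPrep against 273, 322 and 290 CPM in TRIzol, a narrow gap set by TRIzol replicate 1 (log2 fold change -0.15, adjusted p = 0.27 in edgeR). Psmd4, a ubiquitin receptor of the base, had 46.7, 45.5 and 43.6 CPM in AllPrep against 58.9, 56.5 and 53.2 CPM in TRIzol (log2 fold change -0.28 ± 0.07 SE, edgeR adjusted p = 0.066). Psmd1, the other scaffold, had overlapping groups, with 140, 132 and 133 CPM in AllPrep and 127, 146 and 129 CPM in TRIzol (log2 fold change 0.04).

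**Figure D2:**
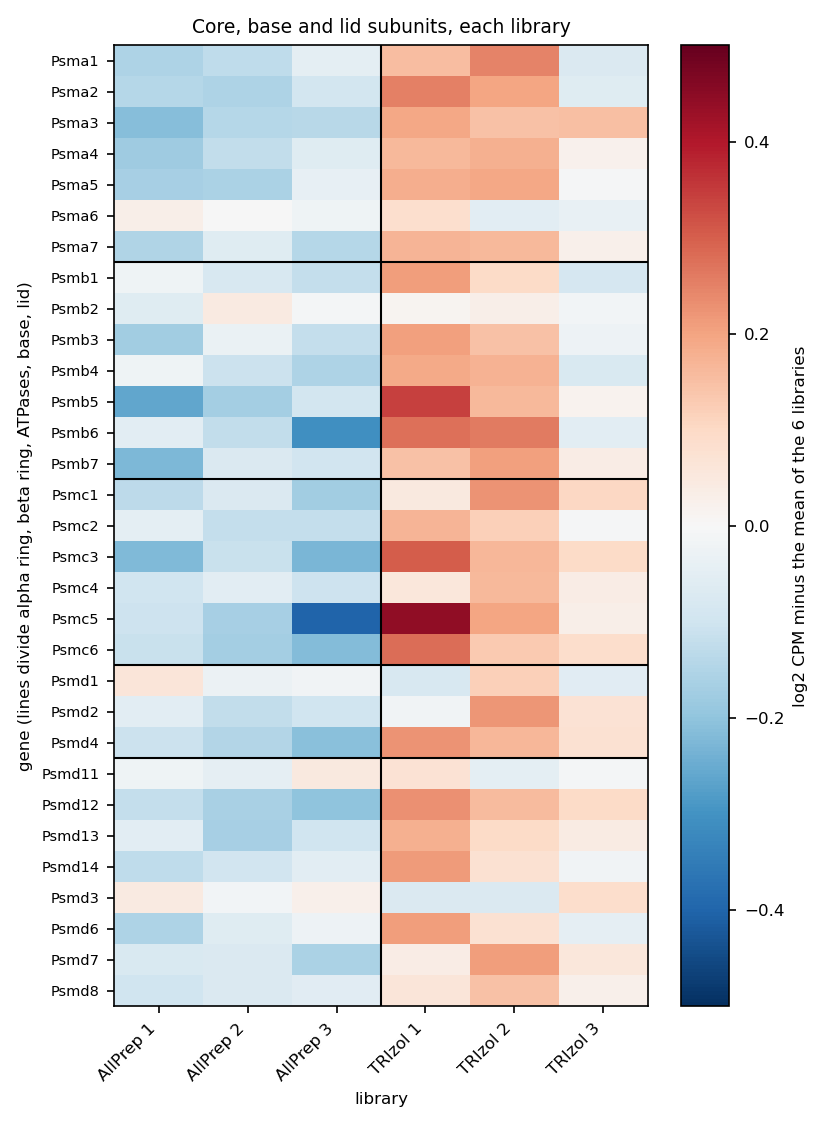
Log2 CPM of the 31 standard subunits (rows, by role) in each library (columns) minus the gene's mean over the 6 libraries, on a colour scale from blue (below) to red (above). TRIzol replicates 1 and 2 are mostly red and TRIzol replicate 3 is paler, while Psma6, Psmb2, Psmd1, Psmd3 and Psmd11 show no block of blue against red; their log2 fold changes were 0.04, 0.02, 0.04, 0.07 and 0.02, those of Psmb2 and Psmd11 negative with library size as the only scaling.

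The lid is a scaffold around Psmd14, the deubiquitinase that cuts ubiquitin chains from substrates. Of its 8 genes 6 had negative values (median -0.14). Psmd12, a lid scaffold subunit, had 72.6, 70.6 and 68.7 CPM in AllPrep against 92.3, 88.0 and 84.4 CPM in TRIzol, well separated groups (log2 fold change -0.29 ± 0.07 SE, edgeR adjusted p = 0.060). Psmd14 had 72.5, 74.2 and 76.4 CPM in AllPrep against 91.9, 83.4 and 78.3 CPM in TRIzol (log2 fold change -0.15, adjusted p = 0.29 in edgeR). Psmd3, the most abundant lid gene by CPM, had 111, 106 and 109 CPM in AllPrep and 102, 102 and 114 CPM in TRIzol, so that one TRIzol library exceeded every AllPrep library (log2 fold change 0.07, 95% interval -0.09 to 0.23). Psmd11 had 57.4 ± 1.90 CPM in AllPrep and 57.9 ± 2.49 CPM in TRIzol (SD, n = 3 each). Psmd6, Psmd7, Psmd8 and Psmd13 had log2 fold changes from -0.18 to -0.12.

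The activators and the inhibitor, which bind the ends of the core or block them, had a summed level near equal in both methods. It was 252 ± 2.84 CPM in AllPrep and 251 ± 3.73 CPM in TRIzol (SD, n = 3 each), with 2 of 6 values positive and a median log2 fold change of -0.05. Psme3, the nuclear activator of the core, was the 1 gene of the 51 whose AllPrep libraries all stood above the TRIzol libraries on CPM. It had 110, 110 and 113 CPM in AllPrep against 95.3, 98.8 and 108 CPM in TRIzol (log2 fold change 0.18 ± 0.07 SE, edgeR adjusted p = 0.17). Psme1 and Psme2 encode the partner subunits of an interferon-inducible activator ring. Psme1 had 28.8, 26.5 and 30.4 CPM in AllPrep and 27.2, 27.5 and 24.1 CPM in TRIzol (log2 fold change 0.16, adjusted p = 0.33 in edgeR). Psme2 had 15, 15.9 and 16.8 CPM in AllPrep against 18.8, 20.9 and 18.2 CPM in TRIzol (log2 fold change -0.24, adjusted p = 0.17 in edgeR). The partners thus had values of opposite sign, and the ratio of Psme1 to Psme2 counts was 1.91, 1.67 and 1.81 in AllPrep against 1.45, 1.32 and 1.32 in TRIzol. That ratio was not tested.

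Psme4, a large activator that acts on the core without ubiquitin, had 59.9 ± 1.72 CPM in AllPrep and 65.9 ± 5.59 CPM in TRIzol (SD, n = 3 each; log2 fold change -0.10). Psmf1, which encodes a proteasome inhibitor and whose value took the other sign under 1 of 17 alternatives, had 36.2 ± 0.807 CPM in AllPrep and 37.6 ± 3.53 CPM in TRIzol (SD, n = 3 each; log2 fold change -0.02). Psme2b, a copy of Psme2, had at most 1.14 CPM in a library, and reads of the 2 genes could be split between them. In RefSeq, Psme1, Psme4, Psmf1, Psmd10, Psmc3ip and Psme3ip1 overlap the protein-coding genes Emc9, Erlec1, Tmem74b, Atg4a, Mlx and Rspry1. Psme2b overlaps 9930111J21Rik1, which had 175 counts over the 6 libraries, and Psmd1 and Psma4 overlap Htr2b and AY074887, with 39 and 3 counts. The use of strand in counting is not stated, so reads in the shared parts of these pairs cannot be told apart.

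The immunoproteasome genes encode the interferon-inducible replacements of the catalytic beta subunits. Psmb10, which replaces Psmb7, had 20.4, 23.7 and 19.2 CPM in AllPrep against 28.4, 26.8 and 25.4 CPM in TRIzol (log2 fold change -0.32 ± 0.11 SE, edgeR adjusted p = 0.12). The other members of the trio were scarce. Psmb8, the replacement of Psmb5, had 1.39, 1.32 and 1.39 CPM in AllPrep and 1.15, 1.51 and 1.11 CPM in TRIzol (log2 fold change 0.16, 95% interval -0.32 to 0.65). Psmb9, the replacement of Psmb6, had 1.5, 0.882 and 1.12 CPM in AllPrep and 1.48, 1.14 and 1.07 CPM in TRIzol (log2 fold change -0.04, 95% interval -0.67 to 0.55). Groups of both genes overlapped, Psmb9 turned sign under 2 of 17 alternatives, and both intervals hold the median of the standard subunits. Counts of Psmb8 were 3.34% ± 0.218 of those of Psmb5 in AllPrep and 2.42% ± 0.470 in TRIzol, and counts of Psmb10 were 39.9% ± 3.97 of those of Psmb7 in AllPrep and 42.5% ± 2.04 in TRIzol (SD, n = 3 each).

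Of 13 genes of the interferon response and class I antigen presentation, 0 passed the test. Their median log2 fold change was -0.16, with 5 positive and 8 negative values. B2m, the class I light chain and the most abundant of them, had 62.1 ± 6.04 CPM in AllPrep and 66.4 ± 4.94 CPM in TRIzol (SD, n = 3 each). Microglia, which express immunoproteasome genes, had 10 markers with a summed level of 348 to 371 CPM in AllPrep and 323 to 337 CPM in TRIzol. Of the 10, 0 passed the test, 3 stood higher in each AllPrep library than in every TRIzol library, as did 13.4% of all tested genes (3 and 16.0% with TMM scaling), and none was at 0. Their part in the immunoproteasome values was not tested. For 7 endothelial markers, none at 0, the sums were 222 to 254 CPM in AllPrep and 189 to 248 CPM in TRIzol.

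**Figure D3:**
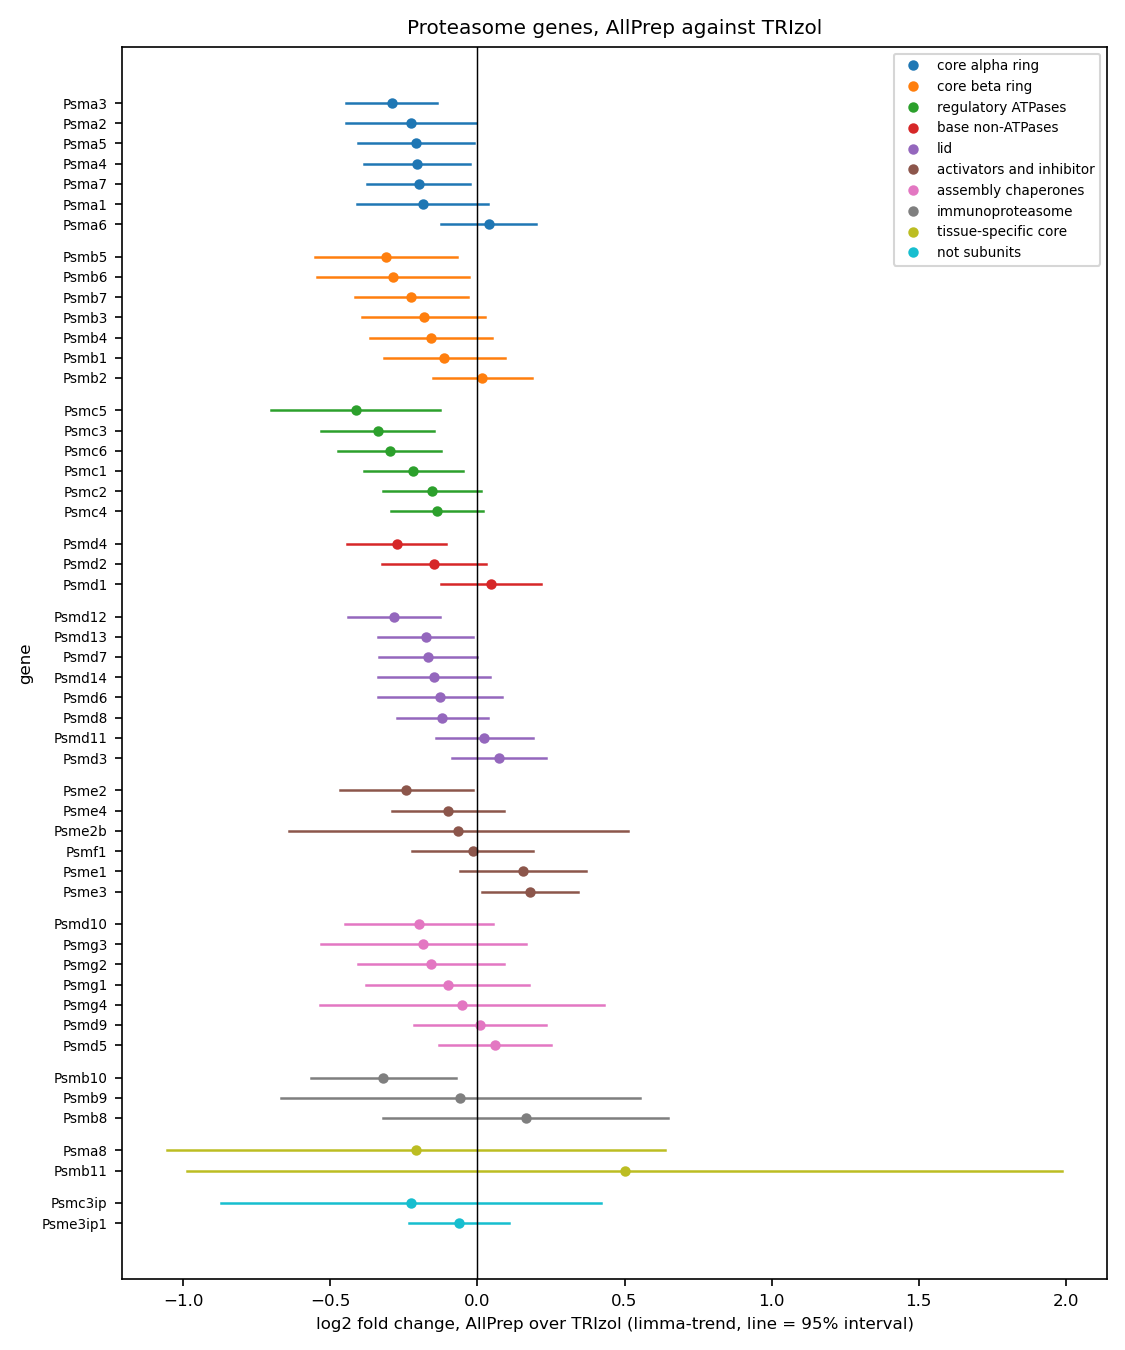
Log2 fold change of each of the 51 genes, AllPrep over TRIzol (horizontal axis, limma-trend), with points for the estimate and lines for the 95% interval, coloured by role. The ATPases all lie left of 0, the activators lie on both sides, and the scarce Psmb11, Psma8, Psmc3ip, Psmb9 and Psme2b have the widest intervals.

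Assembly chaperones guide the rings together and leave the finished particle. Of 7 genes 5 had negative values (median log2 fold change -0.10), and their summed level was 129 ± 2.98 CPM in AllPrep and 134 ± 5.72 CPM in TRIzol (SD, n = 3 each). Psmd5, a chaperone of the base and the most abundant of them, had 65.9, 57.4 and 63.3 CPM in AllPrep and 56.2, 65.5 and 61.7 CPM in TRIzol (log2 fold change 0.06). Psmd10, also a base chaperone, had 15.7, 15.4 and 14.1 CPM in AllPrep and 19.3, 18.3 and 15.7 CPM in TRIzol (log2 fold change -0.20, adjusted p = 0.28 in edgeR). The groups of Psmd10 met at AllPrep replicate 1 and TRIzol replicate 3. Psmd9 and the alpha ring chaperones Psmg1 and Psmg2 had 0.01, -0.10 and -0.16, and Psmg3 and Psmg4, with at most 3.96 CPM in a library, had -0.18 and -0.04.

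Tissue-specific core subunits were close to undetected. Psma8, an alpha subunit of the testis, had 12, 10 and 20 counts in AllPrep and 14, 10 and 22 counts in TRIzol. Psmb11, a beta subunit of the thymus, had 4, 10 and 14 counts in AllPrep and 12, 2 and 4 counts in TRIzol. Their 95% intervals, -1.06 to 0.64 and -0.99 to 1.99, allow no statement on direction. The rows named Psma5-ps and Psmb6-ps, left out as pseudogenes, held at most 10 counts in a library. Psmc3ip, a factor of meiotic recombination, had 1.70 ± 0.402 CPM in AllPrep and 2.06 ± 0.601 CPM in TRIzol, and Psme3ip1, whose product binds that of Psme3, had 38.7 ± 1.55 CPM in AllPrep and 41.4 ± 1.89 CPM in TRIzol (SD, n = 3 each).

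Levels of different genes were set beside each other per transcript length. Whether counts scale with length in these T7-amplified libraries was not checked. On CPM per kilobase of the longest annotated transcript, averaged over the 6 libraries, the standard subunits ran from 19.4 (Psmd11) to 127 (Psmc5). The catalytic Psmb5 and Psmb6 had 51.9 and 65.0 CPM per kilobase, and their immunoproteasome counterparts Psmb8 and Psmb9 had 0.688 and 0.416. Psmb10, at 18.3, was close to Psmb7, at 20.4. Per kilobase of coding sequence the standard subunits ran from 44.6 (Psmd4) to 152 (Psmb1), and Psmb10 and Psmb7 had 29.3 and 69.9. The order within the standard subunits thus depends on which length is used (Spearman's rho between both orders 0.61 over 31 genes). Psmb8 and Psmb9 stayed below all standard subunits on both scales.

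**Figure D4:**
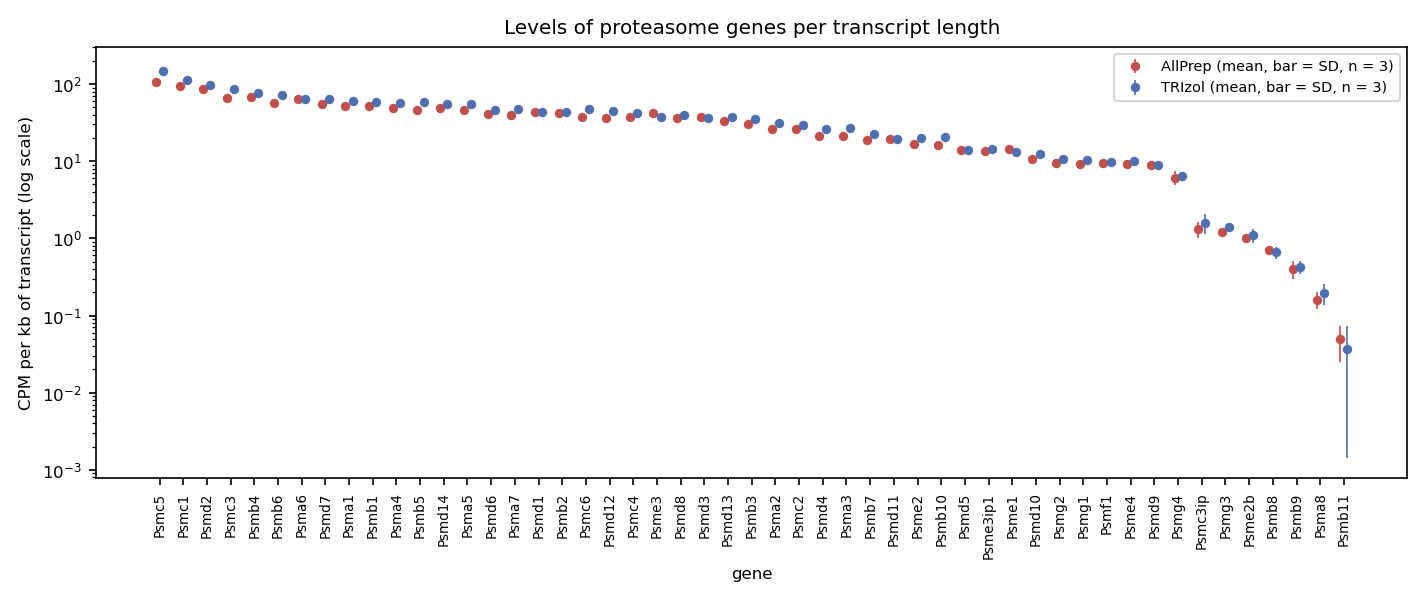
CPM per kilobase of the longest transcript (vertical log axis) for each of the 51 genes, in order of level; points are means and bars the SD over 3 libraries, for AllPrep and TRIzol. Levels decline gradually from Psmc5 (127) and then drop below 2 for Psmc3ip, Psmg3, Psme2b, Psmb8, Psmb9, Psma8 and Psmb11.

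Partners of the proteasome without the Psm name had mostly positive values near 0. Of 18 such genes 0 passed the test and 14 had positive values, where 3.80% and 48.5% of all tested genes did. The median log2 fold change was 0.03. Their longest transcripts had a median of 3.99 kilobases, against 1.82 for the standard subunits. Pomp, which helps the core mature, had 70.4 ± 1.18 CPM in AllPrep and 90.7 ± 10.6 CPM in TRIzol (SD, n = 3 each; log2 fold change -0.33, adjusted p = 0.087 in edgeR), and Uchl5, a deubiquitinase of the base, had 36.5 ± 2.95 CPM in AllPrep and 49.4 ± 6.83 CPM in TRIzol (log2 fold change -0.40). Usp14, the other deubiquitinase bound to the base, had 162 ± 5.89 CPM in AllPrep and 163 ± 6.73 CPM in TRIzol. Nfe2l1, the most abundant gene of the list, had 402 ± 15 CPM in AllPrep and 392 ± 17.1 CPM in TRIzol (log2 fold change 0.07). Ddi2, the protease that activates the Nfe2l1 product, had a log2 fold change of 0.22, and the ubiquitin ligase gene Ube3a had 0.35 (adjusted p = 0.092 and 0.051 in edgeR). Sem1 and Adrm1, subunits of lid and base, had -0.35 and 0.06. Of 6 ubiquitin and E1 enzyme genes 0 passed, with a median of -0.17. Ubb, the most abundant, had 728 ± 9.84 CPM in AllPrep and 785 ± 54.2 CPM in TRIzol (log2 fold change -0.07), and Uba1, the main ubiquitin-activating enzyme, had 0.04.

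Log2 fold change rose with transcript length over all tested genes, and only weakly over the standard subunits. The longest transcript of the standard subunits had a median of 1.82 kilobases, against 3.31 kilobases for all tested genes. The 26 standard subunits with negative values had a median of 1.71 kilobases, and the 5 with positive values 2.89 kilobases. Those 5 were split: Psmb2 and Psma6 had 0.859 and 1.04 kilobases, while Psmd3, Psmd11 and Psmd1 ran from 2.89 to 3.11. Across genes, Spearman's rho between log2 fold change and length was 0.32 over the 51 genes, 0.15 over the standard subunits and 0.31 over 16219 tested genes; genes share libraries and are not independent replicates. With trends on length and GC content removed from each library, the median log2 fold change was -0.11 for the 51 genes and -0.14 for the standard subunits, against -0.05 for all tested genes. In that fit 26 of 31 standard subunits had negative values, with the share over all tested genes not given. Of the 51 genes 0 passed, where 401 of 16325 tested genes did, and the ATPases had a median of -0.18. The median of the 51 genes minus that of all tested genes was -0.06 there, against -0.15 without the removal. The neuron and oligodendrocyte marker sums given above were also lower in AllPrep, and their part in the result was not tested.

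**Figure D5:**
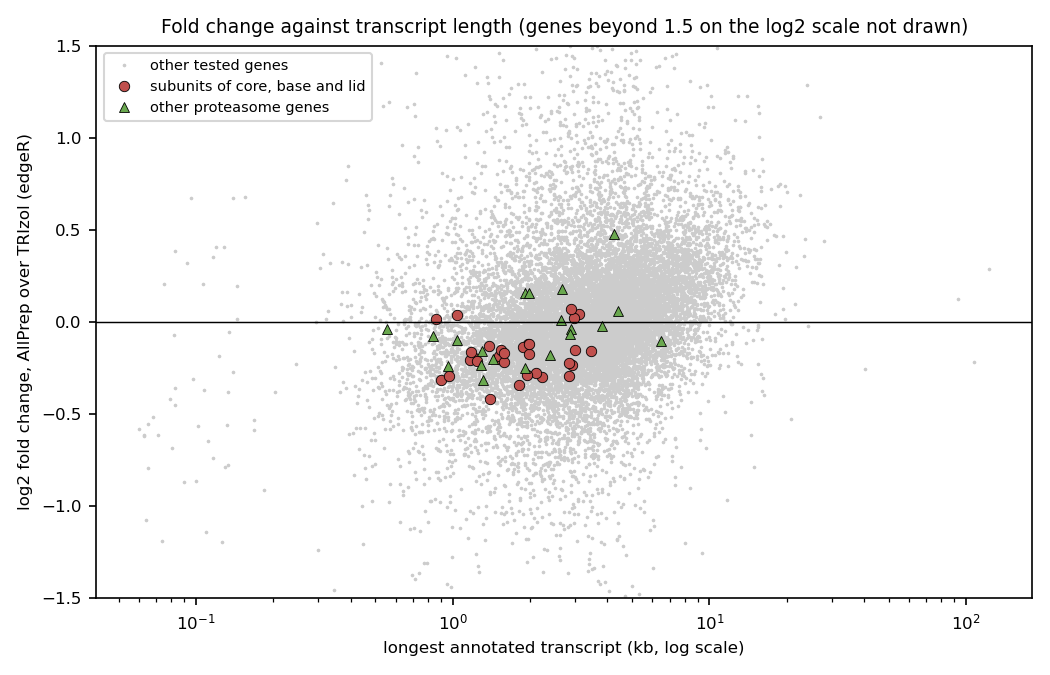
Log2 fold change, AllPrep over TRIzol (vertical axis, edgeR), against the longest annotated transcript (horizontal log axis, kilobases) for all tested genes within 1.5 of 0 (grey), the 31 standard subunits (red circles) and the other 20 proteasome genes (green triangles). Grey points drift upward with length (rho 0.31 over all tested genes), and most red circles lie below 0 and left of 3.31 kilobases, the median of all tested genes.

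The size of these values limits what 3 libraries per method can show. Tested on simulated counts of AllPrep against TRIzol for 16325 genes, the same test recovered 25.4% of genes changed 1.5-fold and 64.2% of those changed 2-fold. The changed genes were drawn at random from all tested genes, so these rates are not specific to proteasome genes. Only 67, 67 and 66 genes were changed 1.5-fold, 2-fold and 4-fold, while 621 genes passed in the data. The adjusted p depends on how many genes change, so the rates in the data may differ. The median 95% interval of a standard subunit was 0.35 wide on the log2 scale, against 0.59 for all tested genes. For Psmc5, the gene furthest below 0, it runs from 0.616 to 0.916 as a ratio of AllPrep to TRIzol.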

How the data were processed

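The authors deposited raw counts per gene for 3 AllPrep and 3 TRIzol libraries; per the submitters' processing notes, the tools were STAR 2.7.9a, featureCounts, cutadapt, FastQC 0.11.9 and limma 3.60.6, on build GRCm39. How strand and multiply mapping reads were handled is not given in the sources used here. Of 22692 rows, 108 repeats of an Ensembl ID with identical counts were removed. Among counts from 1 to 20, 64.2% to 70.9% were even, a pattern that counting each mate of a pair would give. Libraries of a method differed beyond sampling noise (a chi-square of 14.3 or more per degree of freedom), and each was used as its own sample.

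The test was that of edgeR 4.0.16, run in R 4.3.3 (filterByExpr, TMM, quasi-likelihood F-test, two-sided, Benjamini-Hochberg adjusted p below 0.05 over all tested genes, no block). The SE is the size of the log2 fold change divided by the square root of F. Levels are CPM of the column total, so a ratio of levels differs slightly from the TMM-scaled fold change. Intervals came from limma 3.58.1 (limma-trend, prior count 2). Length, GC content and coding length came from GENCODE vM21, which is on another build, and were found for 99.4% of tested genes. Smooth trends on length and GC used mgcv 1.9.3. In simulated data 8.40% of calls were unchanged genes.

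The members, roles and 10 other gene lists (84 of 86 entries matched) were chosen with earlier results of these data known. Named genes were, in each role, the highest and lowest log2 fold change and the most abundant, every activator, inhibitor, immunoproteasome and tissue-specific gene and both genes that are no subunits, and in each other list the most abundant gene and any that passed (cell marker lists are given mainly as sums). Others, such as Psmb6, Psmb7, Psmc3, Psmc6, Psmd14, Pomp, Uchl5 and Ddi2, were named after their values were seen. Alternatives were DESeq2 1.42.0, limma-voom, limma-trend, scaling by library size alone or by the size factors of DESeq2, other filters, halved counts, length and GC offsets, a replicate block and each library left out.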

Additional observations from a re-analysis of the deposited data

How the results depend on the processing

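In edgeR 621 genes passed over all genes (412 higher and 209 lower in AllPrep), and 0 of the 51 proteasome genes. The count over all genes was 2101 with DESeq2, 236 with the replicate block, 401 with length and GC trends removed (150 higher, 251 lower) and 50 with these trends and the replicate block together; library size alone gave 343 higher and 305 lower. Leaving out 1 library at a time gave 2 to 205 genes, the fewest without TRIzol replicate 2. Among proteasome genes 3 passed with library size alone and 6 with DESeq2, and 0 under each other alternative, the 6 fits without a library included; the cause was not tested. Their median log2 fold change lay between -0.19 and -0.11 in all 18 fits and moved by less than the spread between libraries. Without a library it ran from -0.19 (TRIzol replicate 3) to -0.13 (TRIzol replicate 1). The labels leave unsaid what the replicate numbers mark. Deviations of same-numbered libraries correlated at -0.05, 0.01 and 0.16, and those of other pairs at -0.17 to 0.20. With 3 libraries per method, these values cannot show whether the numbers pair libraries. The replicate block changed no call among the proteasome genes (11 at an unadjusted p below 0.05, with the share over all tested genes not given). Genes of low counts, such as Psmb8, Psmb9, Psma8 and Psmb11, are limited by depth.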
